A study of Rattus norvegicus with 6 samples.

Results

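Matrix metalloproteinases and their tissue inhibitors were examined in inflamed rat joint lining: 7 protease genes (Mmp2, Mmp3, Mmp9, Mmp12, Mmp13, Mmp14 and Mmp19) and 3 inhibitor genes (Timp1, Timp2 and Timp3). They were chosen by name, as every non-control probe whose listed gene name equals 1 of these symbols. The 10 genes are carried by 11 probes, Mmp19 by 2 and each other gene by 1, among 41012 probes and 16417 named genes on the array. The samples were synovial tissue from the hind-leg ankle joints of male rats, 8 weeks old, whose strain is not given in the sources used here. All rats had adjuvant arthritis, a joint inflammation provoked by Freund's complete adjuvant (0.1 ml intraperitoneally each day for 18 days). The arthritis group (3 arrays) received saline and the triptolide group (3 arrays) received triptolide at 0.4 mg/kg, daily for 14 days in both. Triptolide is a diterpenoid from the vine Tripterygium wilfordii. No rats without arthritis were analysed here, so the values compare treated with untreated disease. The labels number the replicates without saying that they were separate animals, so p-values reflect only the variation among these 6 samples, part or all of which may be technical.

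Matrix metalloproteinases are zinc-dependent enzymes that cut collagens and other proteins of the extracellular matrix. Most are secreted as inactive precursors, and the Timp proteins bind the active site of the mature enzymes and block it. In arthritic joints, fibroblasts and macrophages of the synovium make many of these enzymes, which take part in cartilage and bone erosion, and inflammatory cytokines such as interleukin-1 induce several of them through the transcription factor AP-1, a dimer of Fos and Jun proteins.

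The letters that measured the genes on which the results turn are shown first. Each probe is a 60-base oligonucleotide given as deposited, 5′ to 3′, without capitals because no motif is marked. The Timp3 probe maps to chr7:19679721-19679780 on the minus strand and the Mmp9 probe to chr3:155992463-155992522 on the plus strand, both on build rn4. The Mmp3 probe maps to the plus strand of chr8:4325061-4325526, a span of 466 bases, so it crosses an intron. Their place relative to coding and untranslated sequence was not analysed here.
Timp3: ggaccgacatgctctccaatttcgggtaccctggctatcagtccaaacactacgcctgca
Mmp9: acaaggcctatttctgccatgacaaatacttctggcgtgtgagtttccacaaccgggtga
Mmp3: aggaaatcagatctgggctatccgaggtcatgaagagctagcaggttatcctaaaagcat

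Promoters of the members were searched for the AP-1 motif. AP-1 was picked because it is known to drive several of these proteases, so finding its motif there is no test. RefSeq promoters (GRCr8 build) were found for 6 of the 10 members. The proteases Mmp2, Mmp9, Mmp14 and Mmp19 had none, so most of the proteases were not examined. The 150 bases before the transcription start are shown for 3 proteases and for Timp3, with the AP-1 motif TGAGTCA, searched on both strands, in capitals. On the minus strand this motif reads TGACTCA.
Mmp3, chr8:12925131-12925280, plus strand: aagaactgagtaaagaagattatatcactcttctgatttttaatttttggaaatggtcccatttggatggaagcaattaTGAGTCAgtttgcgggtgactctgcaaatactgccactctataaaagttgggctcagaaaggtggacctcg
Mmp12, chr8:12866502-12866651, plus strand: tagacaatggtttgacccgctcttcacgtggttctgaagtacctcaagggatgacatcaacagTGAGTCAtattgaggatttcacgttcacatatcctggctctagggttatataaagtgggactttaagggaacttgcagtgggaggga
Mmp13, chr8:12782679-12782828, plus strand: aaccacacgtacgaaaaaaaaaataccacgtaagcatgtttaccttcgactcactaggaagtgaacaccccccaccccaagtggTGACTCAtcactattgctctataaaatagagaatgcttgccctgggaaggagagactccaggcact
Timp3, chr7:19459559-19459708, minus strand: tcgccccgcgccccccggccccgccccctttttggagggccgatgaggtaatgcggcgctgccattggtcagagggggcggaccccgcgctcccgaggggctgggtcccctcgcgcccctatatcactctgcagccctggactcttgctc

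The motif began 71 bases upstream of the start in Mmp3, 87 in Mmp12 and 66 in Mmp13, where it lies on the minus strand. It was not in the 300-base promoters of Timp1, Timp2 or Timp3. Of all 33469 RefSeq promoters of that length, 4.63% hold it. Only this exact sequence was searched. The near form TGAGTAA occurs in the windows of Timp1 (not shown) and Mmp3, and such forms were not counted. The same 3 proteases carry the letters TATAAA, which 14.2% of the promoters hold on either strand, at 32, 39 and 47 bases upstream, and the 3 inhibitors carry none. The windows also differ in base composition, with 39.3% G and C in Mmp3, 45.3% in Mmp12, 46.0% in Mmp13 and 72.0% in Timp3. A match is a description of letters only. Over the 6 arrays Pearson r of the levels was -0.31 between Mmp3 and Mmp12, 0.52 between Mmp3 and Mmp13 and 0.55 between Mmp12 and Mmp13, a description over arrays that share their scaling, in which the Mmp13 value of arthritis 2 is only a bound.

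Levels are given as log2 intensity relative to each array's own 75th percentile, so that 0 is that percentile, and differences are triptolide minus arthritis on this log2 scale. Levels of different probes are not compared with each other. The arrays had 25850 to 28249 spots well above background, the scanner software's test of a spot against its surroundings, and 25772 probes that were so on at least 3 of 6 arrays were tested. All 11 member probes were among them. Arthritis 2 stood apart in tissue content. Of 10 skeletal muscle markers 9 were tested, and their mean deviation from their own 6-array means was 8.47 log2 units there, against -4.22 to 2.08 on the other 5 arrays. Triptolide 2 stood apart in the same measure for markers of nerve and Schwann cells (5 of 6 tested, 2.70 against -1.45 to 0.32 elsewhere) and of smooth muscle and pericytes (4 of 5 tested, 2.30 against -1.46 to 0.70). The labelled tissue had its markers on every array: 11 of 12 synovial fibroblast genes were well above background on all 6, among them Prg4, the lubricin gene of lining fibroblasts. Of the slides, the first held arthritis 1 to 3 and triptolide 1 and the second held triptolide 2 and 3, so slide and group are largely confounded.

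Across the family the groups were not separated by limma after adjustment for all probes. No member passed an adjusted p under 0.05 (the members' adjusted p ranged from 0.994 to 0.995), and 0 of 25772 probes (0.0%) passed in all. At an unadjusted p under 0.05, 1 of the 10 genes passed, Timp3, against 3.23% of all probes. The groups did not overlap for 2 genes, Timp3 and Mmp9, both higher with triptolide, against 8.64% of all probes. The median difference of the 10 genes was 0.15 and that of all tested probes 0.02. Of the 10 genes 6 were higher with triptolide, against 53.9% of all tested probes.

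**Figure D1:**
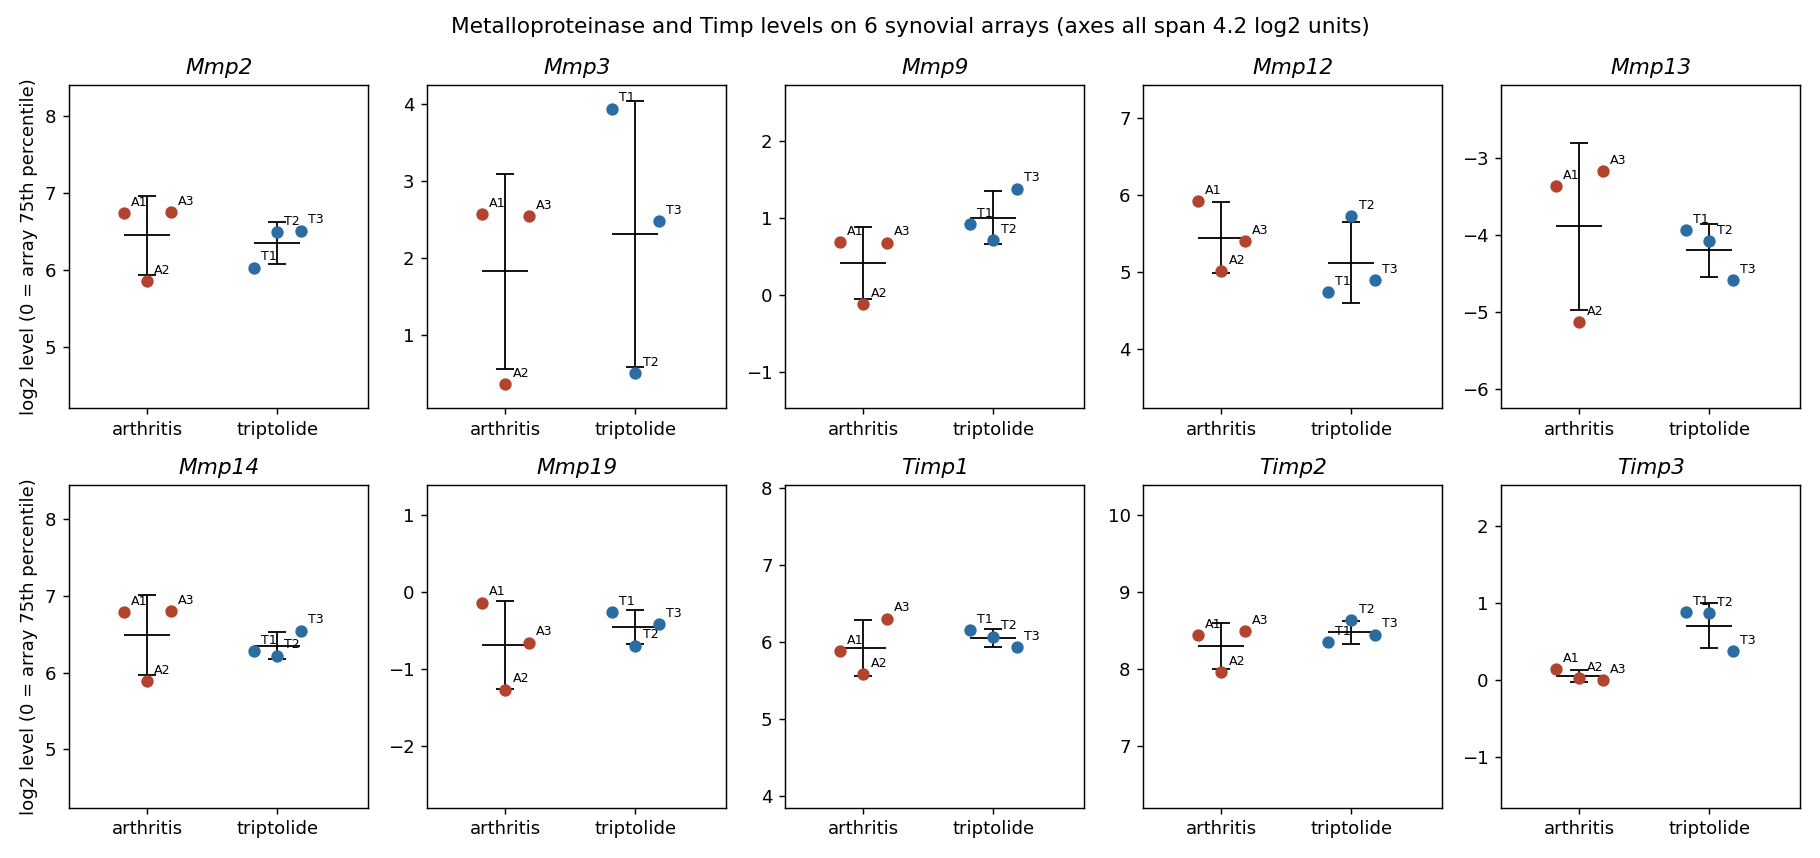
Log2 level of each of the 10 genes (0 is the array's 75th percentile) on the arthritis arrays A1 to A3 (red) and the triptolide arrays T1 to T3 (blue), with the mean and SD of each group as bars; every panel spans the same height, and Mmp19 is shown by its brighter probe. Timp3 and Mmp9 have groups that do not overlap, and arthritis 2 is the lowest array for 8 of the 10 genes.

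All 3 inhibitors had differences above 0 with triptolide, and Timp3 was the inhibitor with separated groups. Timp3 encodes an inhibitor that binds to the extracellular matrix and also blocks ADAM proteases such as the one that sheds tumour necrosis factor. Its level was 0.14, 0.023 and -8.9e-04 on arthritis 1, 2 and 3 and 0.88, 0.87 and 0.37 on triptolide 1, 2 and 3. Every triptolide array was above every arthritis array, with 0.23 between the nearest of them, and the arthritis arrays lay close together while triptolide 3 was lower than the other triptolide arrays. The difference was 0.65 (SE 0.19, 95% interval 0.20 to 1.11), a 1.57-fold higher level. By limma its unadjusted p was 0.0126 and its adjusted p 0.994. Erythroid markers (3 of 4 tested, all 3 with a difference above 0) had a mean deviation of -0.22, 0.27 and -1.20 on arthritis 1, 2 and 3 and 0.65, 0.57 and -0.071 on triptolide 1, 2 and 3. Their groups overlapped, and their mean difference (0.77) was the largest of the marker lists. Endothelial markers (all 5 tested) had a mean deviation of -0.24 to -2.3e-04 on the arthritis arrays and -0.45 to 0.99 on the triptolide arrays. For cartilage markers (5 of 7 tested) it was -0.30 to 0.34 and -1.28 to 1.67 in turn. The part of these cells in the Timp3 result was not tested. The Timp3 difference was 0.57 to 0.82 with each array left out in turn. Within slide 1 (triptolide 1 against the 3 arthritis arrays) it was 0.83. With limma's array weights, which count arrays with a wider spread for less, it was 0.38.

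A pair of probes near the Timp3 probe gave a like pattern. They lie on the same strand of chromosome 7, carry no gene symbol, and were picked after their values were seen. The first, at 19678024 to 19678083 (rn4), represents the cloned transcript FQ227335 and lies 1697 bases from the Timp3 probe. It read -1.07, -1.10 and -0.89 on arthritis 1, 2 and 3 and -0.067, -0.093 and -0.48 on triptolide 1, 2 and 3. The second, at 19676183 to 19676242, represents the assembled transcript TC603000, which the array's annotation describes as similar to the Timp3 protein, and lies 3538 bases away. It read 3.85, 3.77 and 4.04 on the arthritis arrays and 4.80, 4.84 and 4.41 on the triptolide arrays. On both probes the groups did not overlap and triptolide 3 was the lowest treated array, as on the Timp3 probe. The differences were 0.80 (SE 0.18) for each, 1.75-fold and 1.74-fold, with limma's unadjusted p at 0.0033 and 0.0042 and its adjusted p at 0.994. Readings of the same samples at neighbouring positions are not further replicates. A probe on the opposite strand, 1026 bases from the Timp3 probe, was not well above background on any array.

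**Figure D2:**
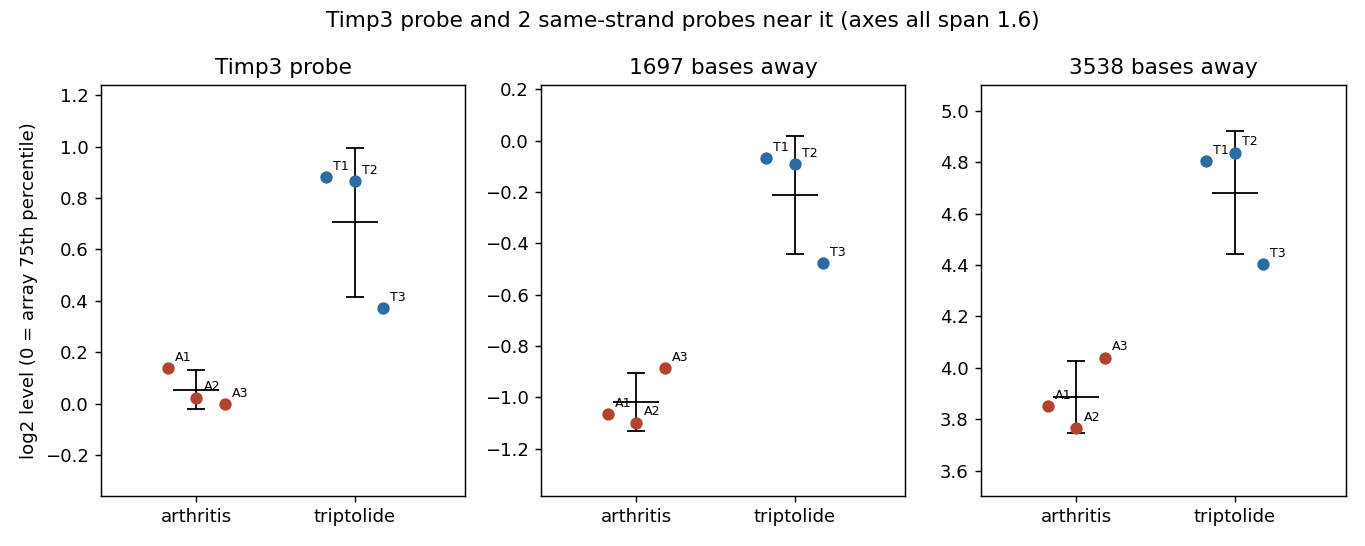
Log2 level (0 is the array's 75th percentile) of the Timp3 probe and of the same-strand probes at 1697 and 3538 bases from it, on the arthritis arrays A1 to A3 (red) and the triptolide arrays T1 to T3 (blue), with the mean and SD of each group. All 3 panels span 1.6 log2 units, and in each the triptolide arrays lie above the arthritis arrays, with triptolide 3 the lowest of them.

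Timp1 and Timp2 had overlapping groups. Timp1, the soluble inhibitor that cytokines induce, read 5.88, 5.59 and 6.30 on arthritis 1, 2 and 3 and 6.16, 6.07 and 5.93 on triptolide 1, 2 and 3. The triptolide arrays lay inside the arthritis range, and the difference was 0.13 (SE 0.22, 95% interval -0.40 to 0.65). Timp2, an inhibitor that also takes part in activating the Mmp2 precursor, read 8.44, 7.96 and 8.49 on arthritis 1, 2 and 3 and 8.35, 8.64 and 8.45 on triptolide 1, 2 and 3. Arthritis 2 was the low array, and the difference was 0.18 (SE 0.20, 95% interval -0.31 to 0.66). Without arthritis 2 the Timp1 difference turned to -0.039 and the Timp2 difference was 0.0069. Within slide 1 they were 0.23 and 0.047.

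Of the gelatinases, which cut denatured collagen and the collagen of basement membranes, Mmp9 was higher with triptolide by a narrow separation and Mmp2 was not apart. Mmp9, an enzyme of neutrophils, macrophages and osteoclasts, read 0.69, -0.12 and 0.68 on arthritis 1, 2 and 3 and 0.92, 0.71 and 1.38 on triptolide 1, 2 and 3. The lowest triptolide array exceeded the highest arthritis array by 0.025. The difference was 0.59 (SE 0.30, 95% interval -0.13 to 1.30), with limma's unadjusted p at 0.0910 and its adjusted p at 0.994. It was 0.32 without arthritis 2. Markers of cells that make it were read on the same arrays. All 6 tested neutrophil genes, of 9 listed, had a mean difference above 0, with a mean deviation of -0.46 to 0.26 on the arthritis arrays and -0.30 to 0.73 on the triptolide arrays, while Elane, Ngp and Cxcr2 were not tested. Of these, Mpo was well above background on only 4 of the 6 arrays and Csf3r on only 3. Over all tested probes 53.9% had a difference above 0. Of 8 macrophage genes 7 were tested and 4 had a difference above 0, with a mean deviation of -0.46 to 0.25 on the arthritis arrays and -0.49 to 0.49 on the triptolide arrays. The 4 tested osteoclast genes, of 7 listed, had a mean deviation of -0.49 to 0.40 on the arthritis arrays and of -0.17 to 0.15 on the triptolide arrays. Their part in the result was not tested, and in bulk tissue fewer cells of a type and less RNA per cell cannot be told apart.

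Mmp2, a gelatinase of fibroblasts, read 6.74, 5.85 and 6.76 on arthritis 1, 2 and 3 and 6.03, 6.50 and 6.51 on triptolide 1, 2 and 3. Arthritis 1 and 3 were the highest arrays and arthritis 2 the lowest, so the treated arrays lay between them, and the difference was -0.10 (SE 0.30, 95% interval -0.83 to 0.62). It was -0.42 within slide 1, -0.40 without arthritis 2 and 0.040 to 0.053 without arthritis 1, arthritis 3 or triptolide 1. Mmp14, a membrane-bound enzyme that activates the Mmp2 precursor at the cell surface, had the same order of arthritis arrays. It read 6.79, 5.89 and 6.80 on arthritis 1, 2 and 3 and 6.28, 6.22 and 6.55 on triptolide 1, 2 and 3, a difference of -0.14 (SE 0.28, 95% interval -0.83 to 0.54) that was -0.44 without arthritis 2. Mmp2 and Mmp14 rose and fell together over the 6 arrays (r = 0.89, a description). Synovial fibroblast markers followed a like course over the arthritis arrays, at 0.41, -0.65 and 0.59, and lay at -0.087, -0.39 and 0.13 on triptolide 1, 2 and 3. Their part was not tested.

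Mmp3 (stromelysin-1), a cytokine-induced enzyme of the synovial lining that also activates other metalloproteinase precursors, varied more between arrays than any other member. Its level was 2.57, 0.36 and 2.55 on arthritis 1, 2 and 3 and 3.94, 0.50 and 2.48 on triptolide 1, 2 and 3. The highest and lowest arrays were 12.0-fold apart, and each group held 1 low array, arthritis 2 and triptolide 2. The difference between groups was 0.48 (SE 1.00, 95% interval -1.93 to 2.90), an interval that holds changes of several fold either way. It was -0.25 without arthritis 2, -0.34 without triptolide 1 and 1.39 without triptolide 2. Within slide 1, where triptolide 1 alone stands for the treated side, it was 2.12, the same as with slide as a block. The same pair of arrays was low for the lubricin gene Prg4, at 6.81, 4.27 and 7.37 on arthritis 1, 2 and 3 and 6.55, 3.52 and 6.74 on triptolide 1, 2 and 3. Prg4 is 1 of the 11 tested synovial fibroblast markers, which differed among themselves. Fap and Has1 were also low on both arrays, while Pdgfrb, Col6a1 and Cdh11 were higher on triptolide 2 than on triptolide 1 and 3. Arthritis 2 and triptolide 2 were also low for T and NK cell markers (all 7 tested), at -0.76 on arthritis 2 and -1.02 on triptolide 2 against 0.34 to 0.54 on the other arrays, and for macrophage markers (7 of 8 tested), at -0.46 and -0.49 against 0.014 to 0.49. The part of these cells in the Mmp3 level was not tested. Il1b, the interleukin-1 beta gene and an inducer of Mmp3, picked after its values were seen, read 0.95, 0.73 and 1.95 on the arthritis arrays and 2.52, 0.76 and 2.14 on the triptolide arrays. As it was picked for its pattern, no correlation with Mmp3 is read from it.

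Mmp12 and Mmp13 lie near Mmp3 on chromosome 8. Probes of 10 metalloproteinase genes lie there between positions 4168554 and 4533706 (rn4), of which those of Mmp1, Mmp10, Mmp8 and Mmp20 were not well above background on any array. Outside the members, Mmp1b, Mmp27 and Mmp7 there were tested. Mmp1b, well above background on only 1 arthritis and 2 triptolide arrays, differed by 1.38 (SE 0.70, 95% interval -0.30 to 3.06), with overlapping groups. Mmp27 differed by -0.39 (SE 0.30) and Mmp7 by 0.49 (SE 0.24). Mmp12, the elastase of macrophages, read 5.92, 5.01 and 5.40 on arthritis 1, 2 and 3 and 4.73, 5.72 and 4.89 on triptolide 1, 2 and 3. Triptolide 1 and 3 were the lowest arrays, but triptolide 2 was above 2 of the arthritis arrays, and the difference was -0.33 (SE 0.35, 95% interval -1.17 to 0.51). It was -0.71 within slide 1, -0.63 without triptolide 2, -0.55 without arthritis 2, -0.22 without triptolide 3, -0.14 without triptolide 1 and -0.088 without arthritis 1. Mmp13, the main collagenase of the rat joint, read -3.36, -5.13 and -3.16 on arthritis 1, 2 and 3 and -3.93, -4.08 and -4.58 on triptolide 1, 2 and 3. On arthritis 2 its probe was not well above background, so the value there is only a bound, and on the other 5 arrays it was. Its levels on triptolide 1, 2 and 3 lay near the lowest well above background there, -4.34, -4.43 and -4.84. The difference was -0.31 (SE 0.54, 95% interval -1.62 to 0.99). It was -0.049 within slide 1, -0.94 without arthritis 2 and 0.047 without arthritis 3. With another background correction (normexp) it was -0.23, and -0.12 with quantile normalization added.

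Without the arrays that stood apart in tissue content, the differences of Mmp2, Mmp12, Mmp13 and Mmp14 grew in size. Those of Timp3 and Mmp9 changed less. The reason was not tested. Leaving out arthritis 2 and triptolide 2 together, a choice made after the data were seen, the difference was -0.85 for Mmp12 (SE 0.22, limma's unadjusted p = 0.0156) and -0.997 for Mmp13 (SE 0.26, unadjusted p = 0.0161). It was -0.48 for Mmp2 and -0.38 for Mmp14, and 0.56 for Timp3 (limma's unadjusted p = 0.0545) and 0.47 for Mmp9. With array weights Mmp12 differed by -0.78 and Mmp13 by -1.12. Without those arrays these 6 of the 10 genes had groups that did not overlap, over 2 arrays against 2, where 45.1% of all probes do so, and the 2 genes at an unadjusted p under 0.05 stand beside 11.2% of all probes. No member reached a limma adjusted p below 0.380 there. Mmp3 (0.65) still overlapped. In that fit 24 of all probes passed the adjusted threshold.

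Mmp19, a metalloproteinase found in the rheumatoid synovium, was read by 2 probes. The brighter read -0.13, -1.27 and -0.65 on arthritis 1, 2 and 3 and -0.26, -0.69 and -0.41 on triptolide 1, 2 and 3. The dimmer read -2.57, -3.87 and -3.16 on the arthritis arrays and -2.86, -3.24 and -2.95 on the triptolide arrays. Both put arthritis 1 highest and arthritis 2 lowest, and both had overlapping groups, with differences of 0.23 (SE 0.31) and 0.19 (SE 0.34). Without arthritis 2 these turned to -0.061 and -0.15, and within slide 1 they were 0.43 and 0.34.

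**Figure D3:**
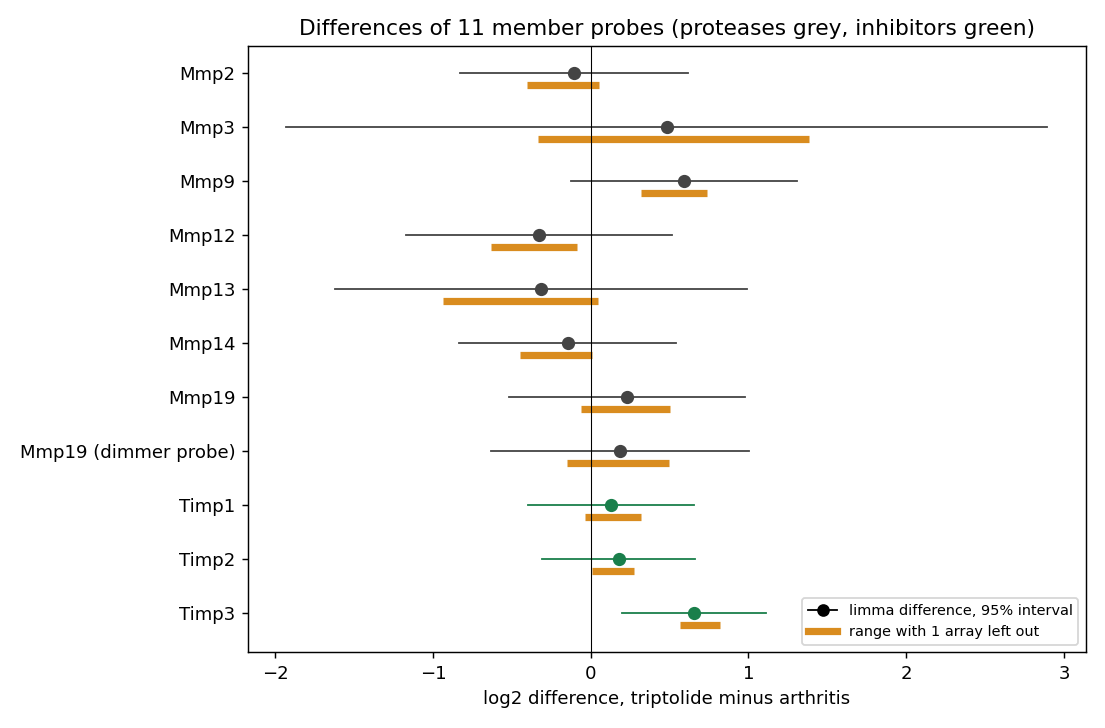
Triptolide minus arthritis on the log2 scale for the 11 probes, with limma's estimate and its 95% interval (proteases grey, inhibitors green) and, in orange, the range over 6 fits that each leave out 1 array. The interval of Timp3 lies above 0 before any adjustment, that of Mmp3 is the widest, and the orange ranges of Timp3, Timp2, Mmp9 and Mmp12 stay on 1 side of 0.

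The precision of single spots was higher than the agreement between arrays. Mmp2, Mmp9 and Timp1 are each printed 10 times per array. The SD between spots of 1 array was 0.031 to 0.11 for Mmp2, 0.060 to 0.14 for Mmp9 and 0.055 to 0.15 for Timp1. The SD between arrays of the same group was 0.52 and 0.27 for Mmp2, 0.46 and 0.34 for Mmp9 and 0.36 and 0.12 for Timp1, for arthritis and triptolide in turn. In all 3 genes and both groups, the SD between arrays exceeded the SD between spots on every array of the group.

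Proteases were then set against inhibitors as whole groups. Of the 7 proteases 3 were higher and 4 lower, with differences from -0.33 to 0.59 and a median of -0.10. The 3 inhibitors were all higher, from 0.13 to 0.65, with a median of 0.18, and 53.9% of all tested probes were higher. For each array the mean deviation of the genes from their own 6-array means was taken. It was 0.42, -0.81 and 0.30 for the proteases on arthritis 1, 2 and 3 and 0.21, -0.20 and 0.080 on triptolide 1, 2 and 3. For the inhibitors it was -0.098, -0.40 and 0.014 on the arthritis arrays and 0.21, 0.27 and -0.0025 on the triptolide arrays. Arthritis 2 was the lowest array in both, and 1 low arthritis array made the protease range in that group wider than in the treated group. Proteases minus inhibitors came to 0.13 ± 0.49 (SD, n = 3) over the arthritis arrays and to -0.13 ± 0.30 (SD, n = 3) over the triptolide arrays. The difference of -0.26 was smaller than the pooled SD of 0.40, so a shift of the balance was not separable from the spread between samples. It stayed below 0 with each array left out in turn, at -0.53 to -0.067, and was -0.13 within slide 1. The protease mean on arthritis 2 includes the Mmp13 value that is only a bound. Among probes well above background on all 6 arrays, which leaves out Mmp13, the difference of the balance was -0.20.

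**Figure D4:**
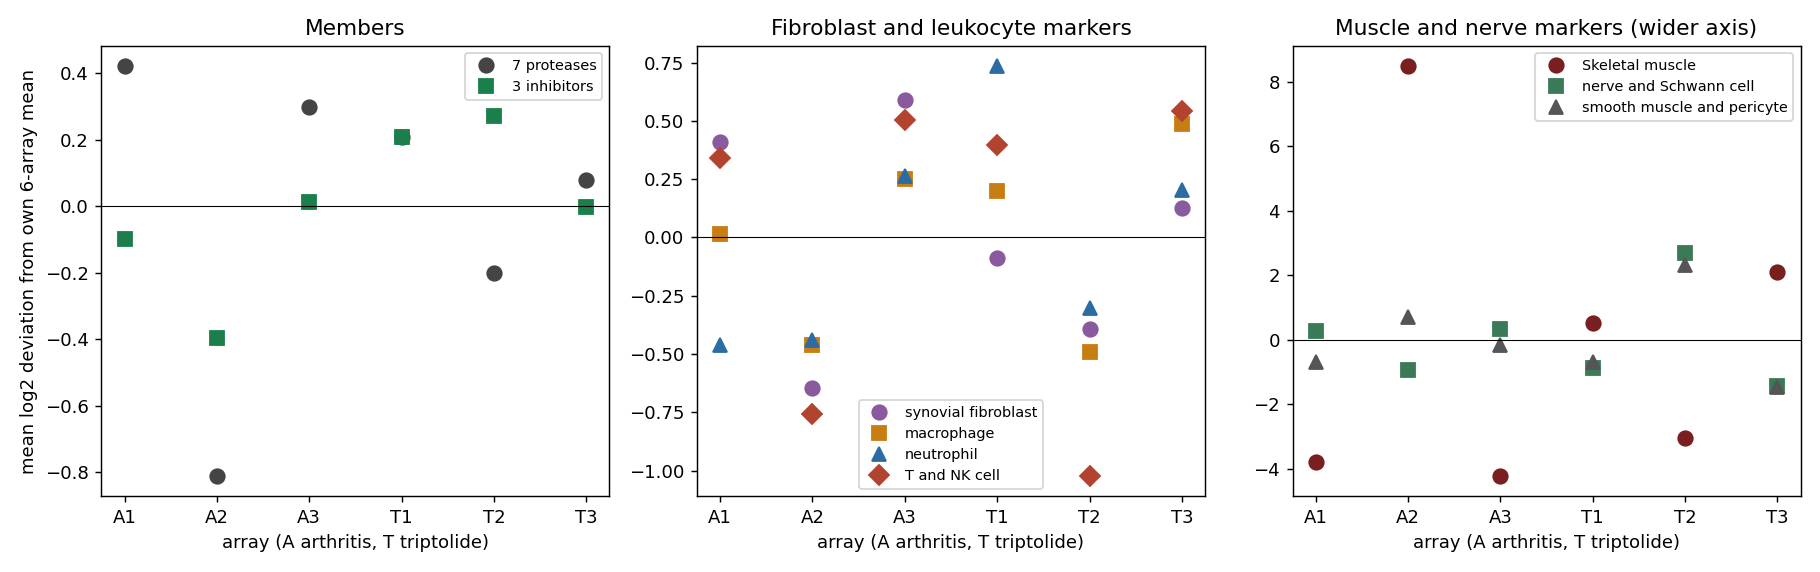
Mean log2 deviation of gene groups from their own 6-array means on arthritis arrays A1 to A3 and triptolide arrays T1 to T3: the 7 proteases and 3 inhibitors (left), fibroblast and leukocyte markers (centre), and skeletal muscle, nerve and smooth muscle markers on a wider axis (right). Arthritis 2 is lowest for the proteases (-0.81) and highest for skeletal muscle (8.47), and triptolide 2 is highest for nerve (2.70) and smooth muscle (2.30).

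By limma, no other gene of the pathway was called. Of 47 such genes listed, 46 were on the array and 36 were tested: 18 were higher and 18 lower, with a median difference of -0.019. Of all 25772 tested probes 13879 (53.9%) were higher, and 11786 without arthritis 2. Of the 36 genes 0 passed by limma at an unadjusted p under 0.05 and 0 after adjustment. Groups did not overlap for 3 of them (8.33%), Mmp7, Plat and Col1a1, against 8.64% of all probes. In each role, the 2 genes with the smallest p are named. Of other metalloproteinases 7 were tested, of which 4 were higher (3 under each other scaling, and 2 without arthritis 2, where their median was -0.38). Mmp7 (matrilysin) differed by 0.49 (SE 0.24), and Mmp16, a membrane-bound enzyme with a pair of probes of which the brighter stands for it, by -0.83 (SE 0.46). Of other inhibitors all 3 tested were lower (2 with normexp background correction and quantile normalization together, and 2 without arthritis 2), among them Timp4 by -0.31 (SE 0.37) and Reck, a membrane-anchored inhibitor, by -0.092 (SE 0.24).

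Activators of metalloproteinase precursors include plasminogen activators, and 4 of the 6 tested genes in that role were higher, but 2 without arthritis 2. Plat, the tissue plasminogen activator gene, read -2.08, -2.01 and -2.12 on arthritis 1, 2 and 3 and -2.39, -2.38 and -2.39 on triptolide 1, 2 and 3, a difference of -0.32 (SE 0.13). Both groups were tight and did not overlap, and limma's unadjusted p was 0.051. Plaur, the urokinase receptor gene, differed by 0.49 (SE 0.26). Of 7 tested substrates 6 were lower (5 with quantile normalization), with a median of -0.20 (-0.50 without arthritis 2), including the collagen genes Col3a1 (-0.39, SE 0.20) and Col4a1 (-0.41, SE 0.29). Of 13 tested inducers and transcription factors 9 were higher, but 6 without arthritis 2 and 7 with normexp background correction. Over all tested probes the number higher also fell, from 13879 to 11786 and 10978 in turn. Fos, a component of AP-1, differed by -0.73 (SE 0.32, limma's unadjusted p = 0.058) and Rela, an NF-kappaB subunit gene, by 0.31 (SE 0.18).

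The genes most like 3 members over the 6 arrays were found by Pearson r among 2370 or 2371 named genes with an SD of at least 0.5, as a description over arrays that share tissue content and scaling. For Mmp3 they were Ly6d (r = 0.996), Nek6 (0.990) and Runx3 (0.990), and 146 genes exceeded an r of 0.9. For Mmp9 they were Cd7 (0.975), Plcxd2 (0.963) and Mapk13 (0.960), with 29 genes above 0.9. For Timp3 they were Npy (0.953), Gsx1 (0.940) and Vegfa (0.924), with 5 genes above 0.9. Gsx1 was well above background on the 3 triptolide arrays but on 0 of the 3 arthritis arrays, Ly6d on 4 of the 6 arrays and Plcxd2 on 5, so their r rests partly on values at background. Timp3 itself had an r of -0.29 to 0.42 with the 7 proteases, and Mmp13 and Mmp14 an r of 0.82.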

How the data were processed

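The authors deposited scanner files that hold, per spot, a 1-colour (Cy3, 0.5 ug of total RNA) intensity with background subtracted and no normalization between arrays. Agilent Feature Extraction 10.7.3.1 wrote them per the file headers, which place probes on rn4, while version 9.1 is named in the submitters' processing notes. A deposited series table of log2 values with 167 rows holds none of the member probes and was not used.

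Control spots and spots marked as outliers were dropped, log2 intensity was expressed relative to the array's 75th percentile, and spots of a probe were averaged. Of 41012 probes, 25772 were tested with limma 3.58.1 (lmFit and eBayes, 2-sided, Benjamini-Hochberg over all) in R 4.3.3, and the scripts were tested on simulated data. With 3 arrays per group their number limits precision. For genes with several probes the brightest counted. Members, pathway and marker lists were chosen with earlier results of these data known. Named pathway genes are the 2 with the smallest p in each role, and the 3 most alike genes are given for Mmp3, Mmp9 and Timp3. Other backgrounds, scalings, filters, weights, blocks and left-out arrays were tried.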

Additional observations from a re-analysis of the deposited data

How the results depend on the processing

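No member passed the adjusted threshold under any setting (lowest 0.164). At an unadjusted p under 0.05, 1 member passed in the main analysis, 4 with array weights (Mmp9, Mmp12, Mmp13 and Timp3), 2 without arthritis 2 and triptolide 2 (Mmp12 and Mmp13), and 1 to 3 with 1 array left out (3 without arthritis 2: Mmp13, Mmp14 and Timp3). Without arthritis 2, 861 of all tested probes passed at that unadjusted threshold. With the replicate number as a block 2 members passed, Mmp9 and Timp3, beside 1064 of all tested probes. Over all tested probes same-numbered arrays did not deviate together (r = -0.16, -0.13 and 8.3e-04). That r cannot tell whether a shared number marks a shared source, since arthritis 2 and triptolide 2 stood apart in different tissue markers. Mmp3 was low on both of them, and with this block its difference of 0.48 had an SE of 0.35, against 1.00 in the main analysis. Over all probes, the adjusted count was 0, also with any 1 array left out, but 1 with array weights and 24 without arthritis 2 and triptolide 2. The unadjusted count of 833 was 4343 with array weights, 1543 with the muscle markers as a covariate, 1756 with no filter on dim probes, 1295 within slide 1, 2879 without arthritis 2 and triptolide 2, and 616 to 1656 with 1 array left out (1656 without triptolide 2). Signs turned with array weights for Mmp19 (-0.023), its dimmer probe (-0.097), Timp1 (-0.065) and Timp2 (-0.0017), with normexp background for the dimmer Mmp19 probe (-0.021), and without arthritis 2 and triptolide 2 for that probe (-0.037), Timp1 (-0.047) and Timp2 (-0.073). With 1 array left out the range was -0.94 to 0.047 for Mmp13, -0.44 to 0.0083 for Mmp14, -0.061 to 0.51 for Mmp19, -0.15 to 0.50 for its dimmer probe, -0.40 to 0.053 for Mmp2, -0.34 to 1.39 for Mmp3 and -0.039 to 0.32 for Timp1. Timp3, Mmp9 and Mmp12 kept their sign in every setting run. The causes were not tested. Mmp13 had no value when a probe had to be well above background on all 6 arrays.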
